A study of Mus musculus with 4 samples.

Results

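The mast cell proteases and receptors are 10 genes of the 55450 in the deposited count files: the chymases Mcpt1, Mcpt2, Mcpt4 and Cma1, the tryptases Tpsab1 and Tpsb2, the carboxypeptidase Cpa3, the stem cell factor receptor Kit, and Fcer1a and Ms4a2, which encode chains of the high-affinity IgE receptor. They were taken by symbol, without an expression filter, and all 10 were found. The set was selected on measured values, the reads of Mcpt4, which were present only in wells with the agonist, so the agonist values of the members are given as a description and not tested. RNA was sequenced from CD11c+ cells enriched with magnetic beads from mesenteric lymph nodes of WT C57BL/6J mice. For each sample 2 nodes were pooled, and each pool's cells were shared out to a control well (H2O) and to a well that received an Ffar2 agonist at 10 µM, and cultured for 6 h. Ffar2 is a receptor for short-chain fatty acids. There were 2 control and 2 agonist libraries, numbered 2 and 3 in both groups after their pool. Pairs of values are given in the order of replicates 2 and 3. No age was given for the mice and no chemical name for the agonist.

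Mast cells store proteases in granules, bound to proteoglycans, and release them when IgE on their surface is cross-linked by antigen or when other receptors are triggered. In mice, Mcpt1 and Mcpt2 are the chymases of mucosal mast cells, while Mcpt4, Cma1, Tpsb2 and Cpa3 are typical of connective tissue mast cells. Mast cells depend on KIT for growth and survival. Kit is also found on blood progenitors, some innate lymphoid cells and activated dendritic cells, so it does not mark mast cells by itself.

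The chymase genes are close copies of each other, and reads that align to more than 1 place were not counted, so the sequences show how far the counts of Mcpt4 can be separated from those of its neighbours. The first 90 coding bases in the GENCODE M21 transcripts of the 3 most alike members follow, 5′ to 3′, with capitals where a base differs from Mcpt4.
Mcpt4: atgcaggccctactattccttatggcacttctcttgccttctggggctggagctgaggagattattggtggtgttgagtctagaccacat
Mcpt1: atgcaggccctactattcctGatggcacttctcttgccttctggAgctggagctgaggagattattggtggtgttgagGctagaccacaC
Mcpt2: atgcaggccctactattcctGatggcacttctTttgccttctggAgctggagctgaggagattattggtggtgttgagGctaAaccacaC
Mcpt1 differs from Mcpt4 at 4 of these bases and Mcpt2 at 6. Over the whole coding sequence Mcpt4 was 86.4% identical to Mcpt1, 79.4% to Mcpt2 and 67.6% to Cma1, and the longest run of bases shared by the Mcpt4 and Mcpt1 transcripts was 46. The tryptases Tpsab1 and Tpsb2 were 75.7% identical, with a longest shared run of 39 bases. Of all 50-base windows of the Mcpt4 transcript, 5.48% occurred in a transcript of another gene, and those genes were Cma2 and Mcpt9, which had 0 reads in every library. For Cma1 the share was 5.46%, all of it in the predicted gene Gm48934, and for the other 8 members it was 0%. No read length is known here, and the windows show only that most of each transcript can be told apart at that length.

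RefSeq promoters of build GRCm38.p6 were matched for 7 of the 10 members. The 120 bases before the start of Mcpt4 and of Mcpt1, the chymases with more than 10 reads in both agonist wells, are printed with the motif GATAA in capitals, because GATA factors are known regulators of mast cell genes.
Mcpt4, minus strand, chr14:56062311-56062430: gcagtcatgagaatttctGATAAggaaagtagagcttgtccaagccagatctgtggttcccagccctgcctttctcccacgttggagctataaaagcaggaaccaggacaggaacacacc
Mcpt1, plus strand, chr14:56017844-56017963: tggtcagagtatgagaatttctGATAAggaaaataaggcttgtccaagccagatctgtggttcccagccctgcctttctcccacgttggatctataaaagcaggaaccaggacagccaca
These stretches matched at 107 of 116 aligned bases (92.2%). GATAA, searched on both strands over windows of 300 bases (250 before the start and 50 after), was present in 6 of the 7 matched members, all but Kit, against 25.4% of 32851 promoters. CACGTG, the core sequence of many basic helix-loop-helix factors, was present in 0 of the 7 and in 7.15% of all promoters. A match of letters is a description of the sequence and not a site shown to be bound.

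Reads assigned to genes numbered 43238375 to 59902172 per library. The libraries carried the markers of the labelled cells, with all 14 dendritic cell markers read in every library, among them Itgax, the gene of CD11c, with 5415 to 9265 reads. Genes of T cells, B cells and macrophages were read in every library too. Both libraries numbered 2 had Xist reads (17776 and 21194) and those numbered 3 had none, while Ddx3y on the Y chromosome had reads only in the libraries numbered 3 (18752 and 21461), so a difference between the pools cannot be told apart from the sex of the mice. In bulk RNA, fewer cells of a type and less RNA per cell cannot be told apart. Agonist replicate 2 stood apart from the other 3 libraries in the mast cell genes, and the values below are therefore given for each library and, for sums, also without it. Levels are given as CPM, counts relative to each library total after TMM scaling (the trimmed mean of M-values). Intervals on reads are exact 95% Poisson intervals that cover counting error only, since reads amplified by PCR without molecular identifiers are not independent molecules.

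The chymases had most of their reads in the agonist wells, and above all in agonist replicate 2. Mcpt4 (ENSMUSG00000061068.7, chromosome 14, 56059629 to 56062313, minus strand, GRCm38), the mouse enzyme closest in activity to human chymase, had 0 reads in both control libraries, 189 (interval 163 to 218) in agonist replicate 2 and 38 (26.9 to 52.2) in agonist replicate 3. The agonist wells did not overlap the control wells, but they differed from each other, at 3.64 and 0.670 CPM. Against a floor of 3 reads in the control well, Mcpt4 was at least 52.8-fold higher with the agonist in pool 2 and at least 11.7-fold higher in pool 3.

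Mcpt1 (chromosome 14, 56017971 to 56020384), a chymase of mucosal mast cells, had 36 reads (25.2 to 49.8) in control replicate 2, 0 in control replicate 3, 168 (144 to 195) in agonist replicate 2 and 78 (61.7 to 97.3) in agonist replicate 3. It was 3.91-fold higher with the agonist in pool 2 (95% counting interval of the ratio 2.71 to 5.77) and at least 23.9-fold higher in pool 3, ratios that compare single libraries. Both agonist wells lay above both control wells, and control replicate 2 had reads while control replicate 3 had none. Mcpt2 (chromosome 14, 56042041 to 56044642), the other mucosal chymase, had 0 reads in both control libraries, 117 (96.8 to 140) in agonist replicate 2 and 3 (0.619 to 8.77) in agonist replicate 3. Its pool 2 value was at least 32.7-fold higher with the agonist, and in pool 3 both wells were at or under the floor of 3 reads. Cma1 (chromosome 14, 55941451 to 55944675), a chymase with elastase-like activity in mice, counted 13 and 7 reads with H2O and 80 and 6 with the agonist. The groups overlapped: the ratio of agonist to control was 5.15 in pool 2 (2.85 to 10.1) and 0.789 in pool 3 (0.219 to 2.74).

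The tryptases were read almost only in agonist replicate 2. Tpsab1 (chromosome 17, 25343245 to 25345562) encodes mast cell protease 7, a tryptase, and had 388 reads (350 to 429) in that library and 0 in each of the other 3. C57BL/6 mice are known to carry a splice-site change in this gene that prevents the protein from being made, and counts per gene do not show how a transcript is spliced. Tpsb2 (chromosome 17, 25366305 to 25369098), the main tryptase of connective tissue mast cells, had 3 reads (0.619 to 8.77) in control replicate 2, 136 (114 to 161) in agonist replicate 2 and 0 in both libraries of pool 3. The ratio of agonist to control in pool 2 was 38.0 for Tpsb2 (12.7 to 186) and at least 108 for Tpsab1, and no fold can be given in pool 3, where neither gene had a read in either well. A count of 0 in control replicate 3 was given the floor of 3 reads, or 0.0574 CPM, while its counting interval reaches 3.69 reads.

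Cpa3 (chromosome 3, 20215620 to 20242181), the carboxypeptidase stored with the chymases, was the protease with the highest count in its lowest library. It had 24 reads (15.4 to 35.7) in control replicate 2, 30 (20.2 to 42.8) in control replicate 3, 159 (135 to 186) in agonist replicate 2 and 22 (13.8 to 33.3) in agonist replicate 3. Agonist replicate 2 was high and the other 3 libraries overlapped within counting error. The ratio was 5.55 in pool 2 (3.6 to 8.91) and 0.675 in pool 3 (0.371 to 1.21).

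The genes of the IgE receptor were read in agonist replicate 2 alone. Fcer1a (chromosome 1, 173221284 to 173227214), the chain that binds IgE, had 14 reads there (7.65 to 23.5) and 0 in the other 3 libraries. Ms4a2 (chromosome 19, 11615523 to 11623719), the beta chain that amplifies the signal, had 23 reads (14.6 to 34.5) there and 0 elsewhere. The third chain, Fcer1g, is shared with other Fc receptors and is made by many myeloid cells. Fcer1g counted 5163 and 3952 reads with H2O and 5100 and 4229 with the agonist, so the shared chain was abundant in all wells while both mast cell and basophil chains were at 0 in 3 of them.

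**Figure D1:**
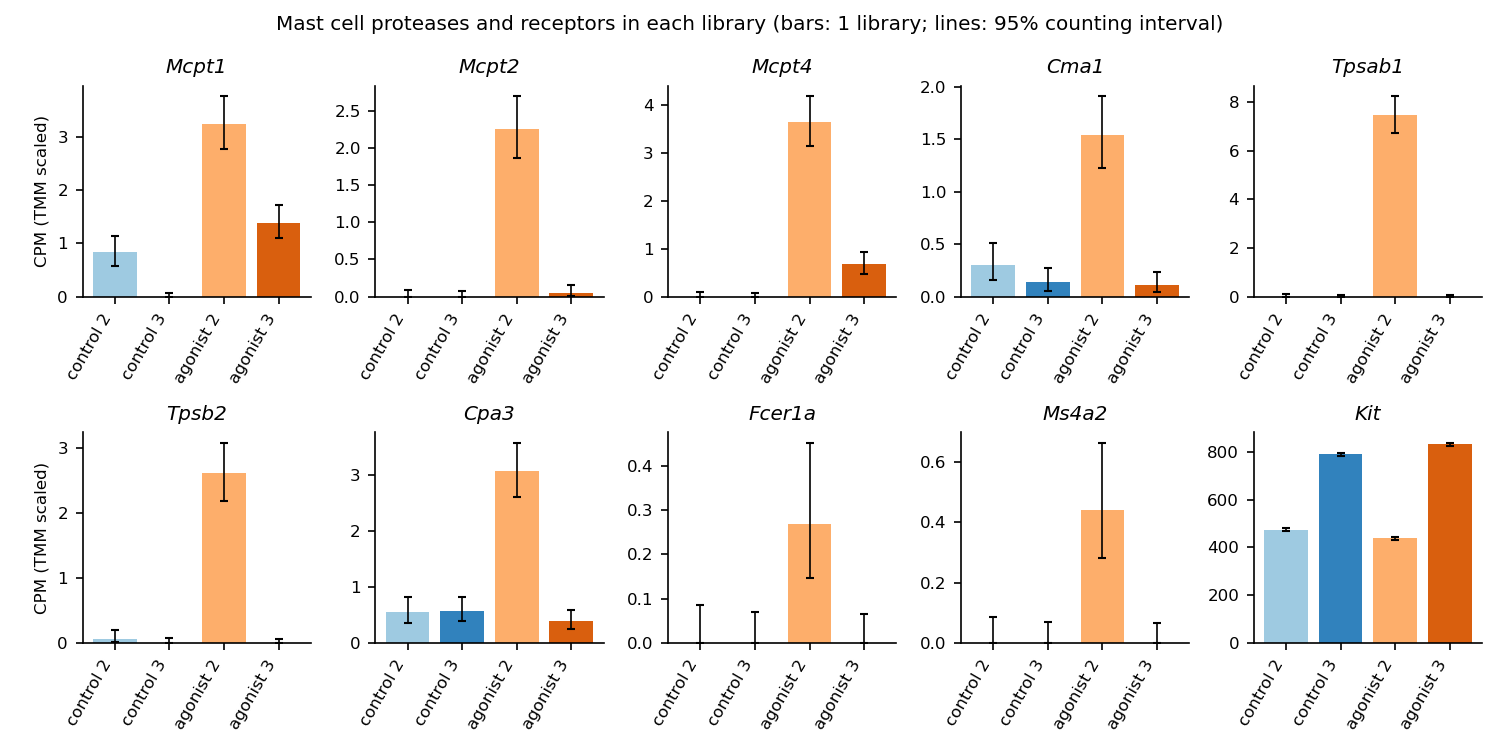
Level of each of the 10 members in CPM (vertical axis, a separate scale in each panel) in the 4 libraries; each bar is 1 library and the lines are 95% counting intervals. Agonist replicate 2 is the highest bar in 9 panels, and in the Kit panel both libraries of pool 3 (789 and 831 CPM) stand above both of pool 2 (474 and 438 CPM).

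Agonist replicate 2 had the highest CPM of the 4 libraries for 9 of the 10 members, all but Kit, while it was the highest for 26.3% of the 28600 genes with a read. Among the 18297 genes that passed the expression filter it was the highest for 25.7%, and control replicate 2 for 31.4%, control replicate 3 for 20% and agonist replicate 3 for 22.9%. The 9 members other than Kit together counted 76 and 37 reads with H2O and 1274 and 147 with the agonist. Agonist replicate 2 thus held 83.1% of their 1534 reads and 24.1% of all gene reads. The 9 genes summed to a mean of 1.23 ± 0.737 CPM (SD, n = 2) with H2O and of 13.5 ± 15.5 CPM (SD, n = 2) with the agonist, a difference smaller than the SD of the agonist pair. On the log2 scale the agonist mean was higher by 3.46, by 3.81 within pool 2 and by 1.87 within pool 3, and by 1.08 without agonist replicate 2. Agonist replicate 3 had 2.59 CPM and the controls 1.75 and 0.708 CPM. Its reads were those of Mcpt1 (78), Mcpt4 (38), Cpa3 (22), Cma1 (6) and Mcpt2 (3). These sums and log2 differences include Mcpt4, whose reads chose the set, and were not taken without it. Nothing is therefore read from the order of the wells. Both agonist wells lay above both control wells for 3 of the 10 members, Mcpt1, Mcpt2 and Mcpt4, and for 10.8% of all genes with a read (11.4% of those past the filter), and because the set was selected on such a pattern nothing is read from that count.

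Levels of different genes were set side by side as TPM, scaled to a common library sum by the union of all annotated exons of a gene. In agonist replicate 2 the proteases had levels, from the highest, of Tpsab1 (12.3 TPM), Mcpt4 (11.3), Mcpt1 (11), Mcpt2 (7.31), Cpa3 (6.95), Tpsb2 (5.66) and Cma1 (4.87). The counting intervals of the first 3 overlapped (11.1 to 13.6, 9.75 to 13.0 and 9.39 to 12.8 TPM). The intervals of the other 4 also overlapped each other, Mcpt2 (6.05 to 8.76), Cpa3 (5.91 to 8.12), Tpsb2 (4.75 to 6.69) and Cma1 (3.86 to 6.06). Those of Mcpt2 and Cma1 overlapped only narrowly, and the order of these genes was not tested. Fcer1a and Ms4a2 were lower, at 0.930 and 0.542 TPM. The order depended on the length used. Per kb of the transcript with the longest coding sequence in place of the exon union, Tpsab1 had 336 reads (303 to 371) in place of 185, above Mcpt4 (171) and Mcpt1 (166) beyond counting error. Tpsb2 then had 122 reads per kb in place of 85.3, above the 110 of Mcpt2 and of Cpa3 but within their intervals, and Ms4a2 had 22.8 in place of 8.18, above the 14.0 of Fcer1a, with overlapping intervals. In agonist replicate 3 the levels were Mcpt1 (4.16 TPM), Mcpt4 (1.86), Cpa3 (0.785), Cma1 (0.298) and Mcpt2 (0.153). Mcpt1 and Mcpt4 were thus level in agonist replicate 2 within counting error and not in agonist replicate 3, where their intervals of 3.29 to 5.19 and 1.31 to 2.55 TPM did not overlap. In the control wells the highest of the 9 was Mcpt1 in replicate 2 (2.60 TPM) and Cpa3 in replicate 3 (1.22 TPM).

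The 4 chymase members lie within 120.9 kb of chromosome 14, in a cluster that also holds Cma2, Mcpt9, Mcpt8, cathepsin G (Ctsg) and granzymes. The reads did not follow the position of the genes. Mcpt9, which lies between Mcpt1 and Mcpt2, and Cma2, next to Cma1, had 0 reads in all 4 libraries. Mcpt8, a basophil protease that starts 23.0 kb beyond Mcpt4, counted 34 and 1 reads with H2O and 0 and 9 with the agonist, so it had no read in the library where Mcpt4 was highest. Gzmb, the granzyme of cytotoxic lymphocytes at the far end of the cluster, counted 306 and 199 reads with H2O and 148 and 28 with the agonist. On the log2 scale this is a difference of -1.70 (SE 0.85), which did not pass edgeR's test, where 0 of 18297 genes passed.

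**Figure D2:**
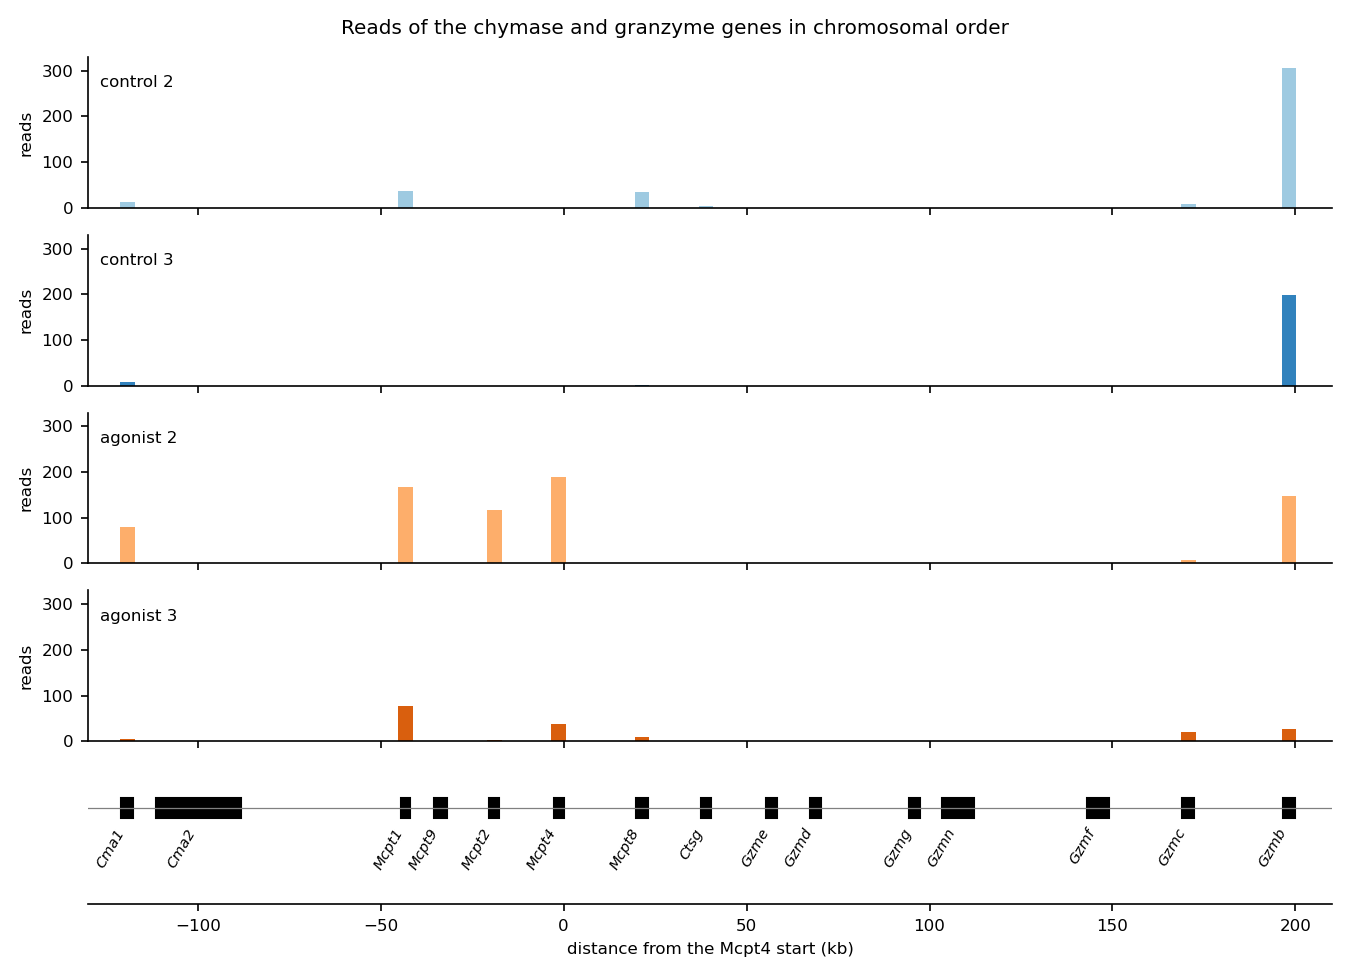
Reads (vertical axis) of the genes of the chymase and granzyme cluster in each library, placed by their distance in kb from the Mcpt4 start (horizontal axis), with gene bodies as black boxes below. Mcpt1, Mcpt2, Mcpt4 and Cma1 are tallest in agonist replicate 2, while Mcpt8 has 0 reads there and Cma2 and Mcpt9, which lie between them, have 0 in every library.

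Kit (ENSMUSG00000005672.12, chromosome 5, 75574916 to 75656722, plus strand) did not share the pattern of the other 9 members. It counted 20632 and 41233 reads with H2O and 22797 and 47146 with the agonist, and in TPM it was higher than 96.0% to 97.8% of the detected genes of each library. Its level was 169 and 285 TPM in the control and 170 and 286 TPM in the agonist wells, against 11.3 TPM for Mcpt4 in agonist replicate 2. The conditions were nearly equal within each pool, with a ratio of agonist to control of 0.925 in pool 2 and 1.05 in pool 3. The pools were apart: pool 2 had 456 ± 25.1 CPM and pool 3 had 810 ± 29.6 CPM (SD over n = 2 wells of each pool).

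The difference of Kit between the pools was not used to choose the members and can be tested, with 1 pool per arm, so that a p-value speaks only of variation among wells that shared their cells. With group as a covariate the log2 difference of pool 3 over pool 2 was 0.83 (SE 0.23, 95% interval 0.30 to 1.36). In edgeR's quasi-likelihood test over 18297 genes Kit had an adjusted p of 0.152 (0.00621 before adjustment) and did not pass the threshold of 0.05. DESeq2 gave 0.85 with an adjusted p of 0.0280, and limma-voom 0.83 with an adjusted p of 0.0730. The background of calls between the pools was 0.394% of genes in edgeR (13.9% at an unadjusted p under 0.05), 1.5% in limma-voom and 3.86% in DESeq2. Both wells of pool 3 lay above both wells of pool 2. Mcpt1 (-2.76, SE 1.11) and Cpa3 (-1.49, SE 0.91) had lower values in pool 3 and adjusted p values of 0.307 and 0.517 in edgeR. Cma1 had a fitted difference of -2.52 (SE 1.16). It passed the expression filter through its pool 2 wells alone (13 and 80 reads, against 7 and 6 in pool 3), so nothing is read from its difference. Without agonist replicate 2, and with pool as the only term, the differences were -0.23 for Mcpt1, -1.28 for Cma1 and -0.18 for Cpa3. Mcpt4 is not compared between the pools, since its reads in the 4 libraries chose the set.

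**Figure D3:**
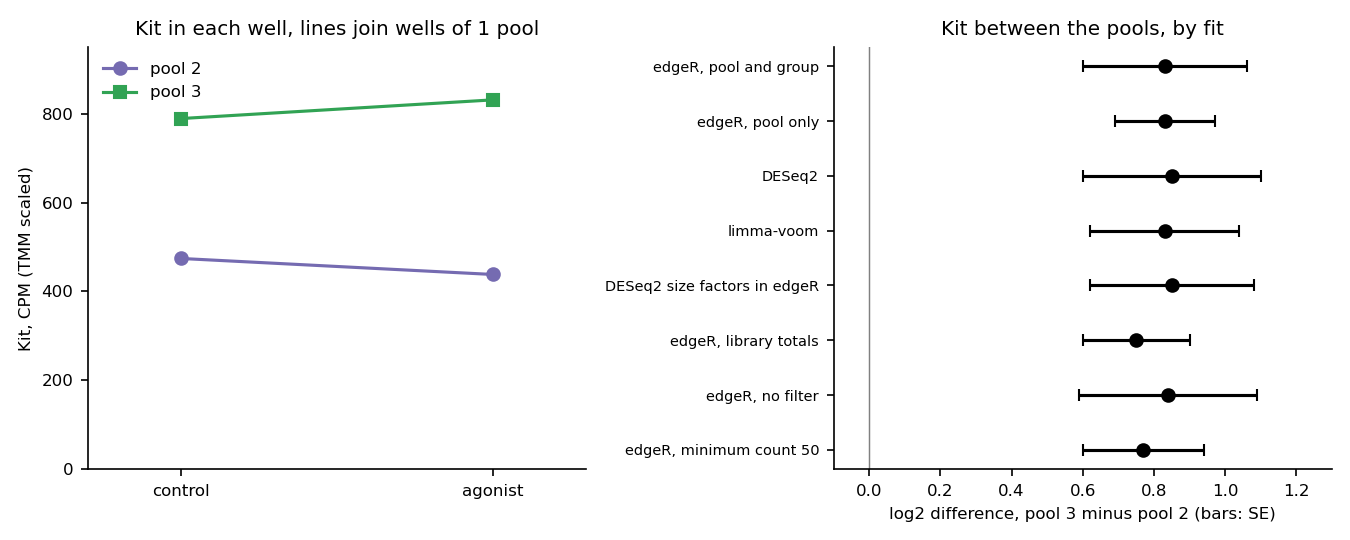
Left, Kit in CPM (vertical axis) in the control and agonist wells, with a line for each pool; right, the log2 difference of pool 3 minus pool 2 (horizontal axis) in each fit of the 4 libraries, with bars for the SE. The wells of 1 pool lie close together, and the difference between the pools is 0.75 to 0.85 in all of the fits shown.

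The ligand of KIT, Kitl, was low, at 117 and 40 reads with H2O and 101 and 101 with the agonist. Kit was in the range of other growth factor receptors in these cells. Flt3, the receptor that dendritic cell development depends on, had a mean of 132 TPM and Il7r, the IL-7 receptor, a mean of 308 TPM, against 228 TPM for Kit. Among markers of other cells that can carry Kit, Gata3 had 82 to 160 reads and the progenitor gene Mpo had 3 to 14. The summed level of the 10 innate lymphoid and progenitor markers was 763 to 782 CPM in the control and 779 to 876 CPM in the agonist wells, most of it from Il7r and Flt3. The part of such cells in the Kit level was not tested.

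Other mast cell genes were chosen as a list of 18, of which 13 had a read and 11 passed the expression filter. Agonist replicate 2 was the highest library for 6 of the 13. Gata2, a transcription factor of mast cells and basophils, counted 1 and 3 reads with H2O and 29 and 0 with the agonist. Rab27b, which moves secretory granules, counted 3 and 15 with H2O and 42 and 0 with the agonist. Hdc, the enzyme that makes histamine, counted 164 and 75 with H2O and 370 and 109 with the agonist. Gata2 and Rab27b were thus high in the same library as the proteases and at 0 in agonist replicate 3. Other genes of the list were highest elsewhere. Il1rl1, the IL-33 receptor, counted 310 and 84 reads with H2O and 157 and 91 with the agonist, and Slc45a3 counted 42 and 86 with H2O and 10 and 37 with the agonist. Gata1 counted 6 and 29 with H2O and 14 and 0 with the agonist. Mrgprb1 and Mrgprb2, receptors of connective tissue mast cells, the tryptase gene Tpsg1, Cma2 and Mcpt9 had 0 reads in all 4 libraries.

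Among the more abundant genes of that list, Hdc, Ndst2 and Mitf were highest in agonist replicate 2, and Srgn, Hpgds and Slc18a2 were not. Srgn, the core protein of the granule proteoglycan, is made by most blood cells and had 912 to 1080 CPM in all wells. Hpgds, the prostaglandin D synthase, had 46.6 and 15.2 CPM in the control and 37.7 and 20.7 CPM in the agonist wells. Slc18a2, the vesicle transporter of histamine and other amines, had 13.1 to 18.7 CPM. Ndst2, which sulfates heparin, had 7.76 and 7.14 CPM with H2O and 11.6 and 10.2 CPM with the agonist. Mitf, a transcription factor of mast cells, had 7.74 and 8.19 CPM with H2O and 11 and 6.51 CPM with the agonist. Over the 11 tested genes 0 rose and 0 fell in edgeR's test. That test called 0 of all 18297 genes (0%), so nothing is read from this count. The median log2 fold change of agonist over control was -0.06, against -0.05 for all 18297 genes. In pool 2 the median was 0.51, against -0.09 for all tested genes, and in pool 3 both were 0.

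Genes that carry the signal of the IgE receptor and of KIT were all present. Of 14 genes, all were tested and 0 passed in either direction, as for 0% of all 18297 genes, so nothing is read from that count. Their median log2 fold change was -0.09. The median ranged from -0.35 to 0.28 with 1 library omitted at a time, so that its sign depended on the libraries used. The most abundant were Inpp5d, a phosphatase that restrains the signal, with 320 to 466 CPM, Stat5a with 293 to 468 CPM, Lyn, the first kinase of the IgE receptor, with 145 to 213 CPM, and Stat5b with 113 to 245 CPM. Dendritic cells, B cells and macrophages use these proteins as well. On the log2 scale Stat5a differed by 0.45 (SE 0.26) and Lyn by 0.34 (SE 0.27), neither past the test.

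Basophils share Cpa3, Fcer1a, Ms4a2, Hdc and Gata2 with mast cells, and 1 of the 7 basophil markers with a read was highest in agonist replicate 2. Of the 8 listed basophil genes, 6 were tested and 0 passed, as for 0% of all 18297 genes, so nothing is read from that count. Their median log2 fold change was -0.56. The median was -0.06 without control replicate 2, -1.28 without agonist replicate 2, -1.08 with no filter and 0.02 with a minimum count of 50. The marker highest in agonist replicate 2 was Il3ra, the alpha chain of the IL-3 receptor, with 92 and 181 reads with H2O and 218 and 174 with the agonist. Prss34 had 0 reads in all libraries. Cd200r3 counted 205 and 41 reads with H2O and 85 and 23 with the agonist, and its highest library was control replicate 2, as for Mcpt8 and Il4. The beta chains of the IL-3 receptor, Csf2rb and Csf2rb2, which dendritic cells also make, were abundant at 2890 to 4130 and 595 to 881 CPM. Eosinophil markers summed to 21.7 to 23.9 CPM in the control and 14.7 to 20.0 CPM in the agonist wells, and their defining peroxidase Epx had 0 reads in all libraries. The part of basophils in the reads of the shared genes was not tested.

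**Figure D4:**
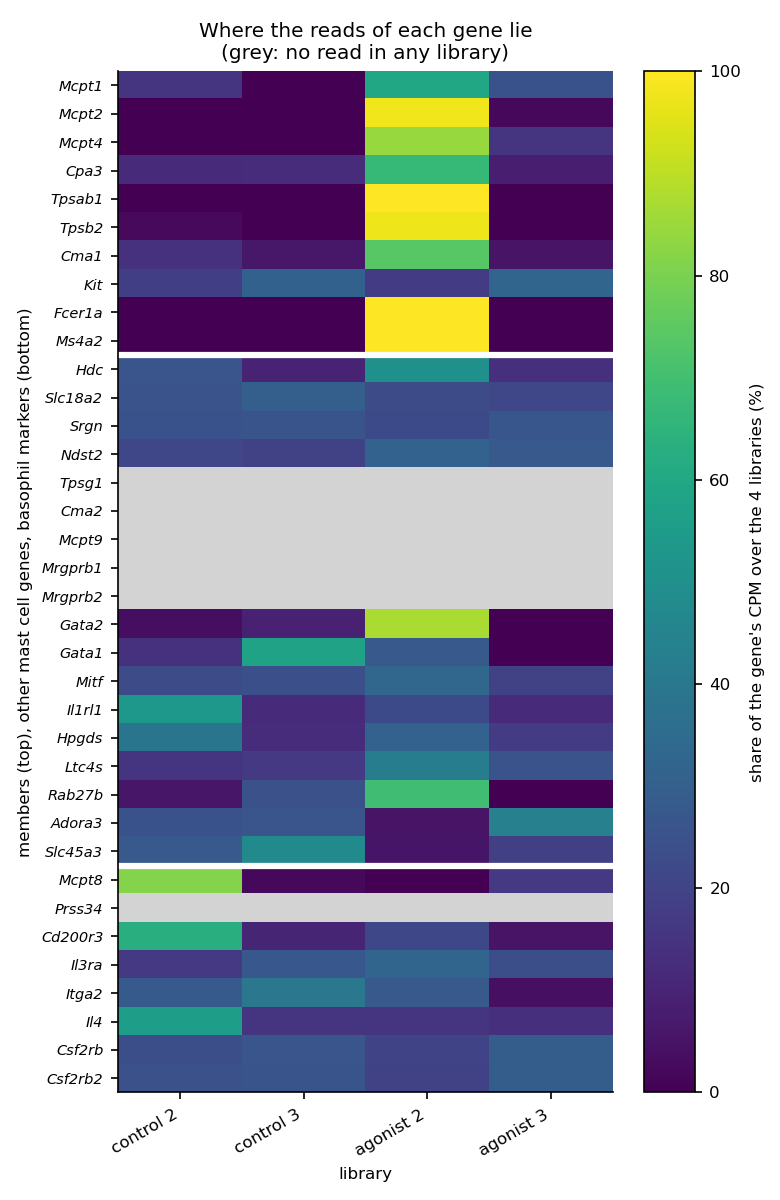
Share of each gene's CPM that lies in each of the 4 libraries (color, in percent; rows are the members, the other mast cell genes and the basophil markers; grey rows had no read). The members other than Kit are bright in the column of agonist replicate 2, as are Gata2 and Rab27b, while Mcpt8 is bright in control replicate 2.

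Markers of the cell types that bead enrichment can leave behind moved with the wells as follows. Summed T cell markers were 1030 and 591 CPM in the control and 717 and 430 CPM in the agonist wells, and the highest library was control replicate 2 for all 10 of them. Macrophage and monocyte markers summed to 5770 and 3210 CPM in the control and 5170 and 3510 CPM in the agonist wells, and stromal and endothelial markers to 103 and 68.6 CPM and to 77.5 and 49.1 CPM. In each of these sums the libraries of pool 2 were above those of pool 3, and the highest library was control replicate 2. The sums follow their most abundant genes, and single markers differed. Of 12 macrophage and monocyte markers 2 were highest in agonist replicate 2, among them Mertk (82 and 111 reads with H2O, 441 and 178 with the agonist). Of 9 stromal and endothelial markers 3 were highest there, among them the collagen genes Col1a1 (8 and 9 reads with H2O, 22 and 3 with the agonist) and Col1a2 (1 and 12 reads with H2O, 28 and 1 with the agonist), as were 4 of 8 plasma cell markers and 4 of 14 dendritic cell markers. Among genes of alternatively activated macrophages, Retnla counted 0 and 9 reads with H2O and 115 and 166 with the agonist, so its highest library was agonist replicate 3. Of the 8 genes of that list each library was the highest for 2. Arg1, which went the way of Retnla, counted 31 and 71 reads with H2O and 147 and 244 with the agonist, while Chil3 counted 16 and 8 with H2O and 0 in both agonist libraries, and Mrc1 and Cd163 had log2 fold changes of -0.33 and -0.48. None of these lists had a gene past the threshold of edgeR's test in the agonist comparison, which called 0 of all 18297 genes (0%). The part of these cells in the protease reads was not tested.

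The pattern that chose the set was also found in Inhba, the activin A subunit, which had 0 reads in both control wells and 40 and 59 with the agonist. It was the gene other than Mcpt4 with 0 reads in both control wells and at least 38, the lower agonist count of Mcpt4, in both agonist wells (0.00361% of 55450 genes, a share that restates the choice of Mcpt4 and from which nothing is read). At least 50 reads in agonist replicate 2 and 0 in the other 3 libraries were found for 4 genes (0.00721%), Tpsab1 (388), Cacna2d1 (86), Ighv1-84 (67) and Igkv18-36 (52), against 1 gene in each control library (0.0018%) and 2 in agonist replicate 3. With a minimum of 10 reads, met by Tpsab1, Ms4a2 and Fcer1a, the number was 154 genes (0.278%), against 157 (0.283%) and 158 (0.285%) in the control libraries and 164 (0.296%) in agonist replicate 3, so reads of that size in a single library were as frequent in each of them.

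The genes closest to Mcpt4 over the 4 libraries, by Euclidean distance in log2(CPM + 0.5), were Il22 (distance 1.03), Plekhh2 (1.12), Liph (1.17), Tcaf1 (1.18) and Rhov (1.21). Il22, a cytokine of innate lymphoid and T cells that acts on epithelium, counted 4 and 11 reads with H2O and 184 and 8 with the agonist. Plekhh2 counted 0 reads in both wells with H2O and 77 and 23 with the agonist. The likeness is over 4 libraries only.

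Of the 18297 genes tested for the agonist, 0 reached an adjusted p of 0.05 in edgeR's quasi-likelihood test (0% called), and 289 had an unadjusted p under 0.05 (1.58%). limma-voom called 0 genes, DESeq2 7 (0.0383%) and edgeR with the pool as a block 1 (0.00547%), which was Igha. Of the 10 members 5 passed the expression filter, Mcpt1, Mcpt4, Cpa3, Cma1 and Kit. Mcpt4 passed it through its agonist wells alone. Mcpt4, the gene the set was chosen for, was among the 7 genes of DESeq2, and nothing is read from that here. As a description, the fitted log2 fold change was 2.49 (SE 1.53) for Mcpt1, 1.92 (SE 1.34) for Cma1, 1.61 (SE 1.01) for Cpa3 and 0.01 (SE 0.41) for Kit. Without agonist replicate 2 the values of Cpa3 and Cma1 turned to -0.50 and -0.98. That of Mcpt1 was 1.56 without control replicate 3, 3.54 when blocked on the pool and 4.80 in limma-voom. Without control replicate 2 no control read of Mcpt1 is left, and its fitted value (9.95) is no measure of size.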

How the data were processed

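The authors deposited raw counts of reads for each gene, without normalization. STAR 2.7, HTSeq 0.11.1 and build GRCm38 are named in the submitters' processing notes, and libraries were made with a SMART-seq v4 kit per the labels' protocols. The strand setting and read length were not given in the sources used here. HTSeq summary lines were left out (reads outside genes 15.96% to 19.99%, overlapping several genes 5.771% to 6.501%, aligned to several places 6.541% to 6.985% of each library).

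Counts were analysed with edgeR 4.0.16 (minimum count 10, TMM scaling, quasi-likelihood test, group as the only term, Benjamini-Hochberg adjustment), limma 3.58.1 and DESeq2 1.42.0 in R 4.3.3. SE was derived from the F statistic. Identifiers, coordinates, exon lengths for TPM and transcripts came from GENCODE M21, which held all 55450 gene rows. Ratios within a pool have exact conditional binomial intervals. Alignments used Biopython 1.88. The fits were run on simulated counts, which checked only that median log2 fold changes were recovered. For the agonist those counts held no difference between pools, unlike the data.

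Cells of a pool were divided between wells per the labels' protocols, which pairs the libraries. Same-numbered libraries deviated together (Pearson r = 0.288 over 18297 genes), and blocking on the pool was tried as an alternative. The main agonist fit ignores this pairing, so its SE values include the difference between the pools. With the block 645 genes had an unadjusted p under 0.05 in edgeR's quasi-likelihood test, against 289 without it. The labels do not say how many mice a pool came from, and p-values measure only the spread between these samples. In the agonist test that spread includes the difference between the pools, which also differed in Xist and Ddx3y. In the pool test it is the spread between wells that shared their cells, which may be technical. The members and lists were chosen with earlier results of these data known. All members were named, from other lists the most abundant genes or those past the threshold, and the 5 genes closest to Mcpt4. Genes named beyond that, among them Gata1, Gata2, Rab27b, Il1rl1, Slc45a3, Il3ra, Kitl, Gata3, Mpo, Mcpt8, Retnla, Arg1, Chil3, Mrc1, Cd163, Mertk, Col1a1, Col1a2, Igha, Jchain and those found in 1 library alone, were chosen after their values were seen.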

Additional observations from a re-analysis of the deposited data

Results flagged for a closer look

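For 3 members the ratio of agonist to control in CPM lay on opposite sides of 1 in the 2 pools. This was not tested because each pool has 1 well per condition. The ratio of agonist to control was 5.55 in pool 2 and 0.675 in pool 3 for Cpa3, and 5.15 and 0.789 for Cma1. For Kit it was 0.925 and 1.05, and its direction in pool 2 depended on the scaling. In TPM, Kit had 169 in the control and 170 in the agonist well of pool 2, and 285 and 286 in pool 3. The counting intervals of Cpa3 and Cma1 in pool 3 include 1.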

How the results depend on the processing

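The number of genes called for the agonist, 0, was 0 with limma-voom, DESeq2 size factors, library totals and a minimum count of 50. It was 1 with the pool as a replicate block, 7 in DESeq2, 6 in DESeq2 with the replicate block and 9 with no filter, and 0 to 2 with 1 library omitted at a time. Of the members, Mcpt4 was among those genes in DESeq2 and with no filter, and Tpsab1 with no filter. With the replicate block no member was called in edgeR, and Mcpt4 was no longer called in DESeq2. Nothing is read from these calls of members, since the set was chosen on the agonist contrast. All reads of Tpsab1 also lay in agonist replicate 2. Between the pools 72 genes were called, 70 with DESeq2 size factors, 5 with pool as the only term, 5 with library totals, 8 with a minimum count of 50, 275 in limma-voom, 600 with no filter and 706 in DESeq2. With 1 library omitted at a time and pool as the only term it was 1 to 1575: 841 without control replicate 2, 1 without control replicate 3, 1575 without agonist replicate 2 and 10 without agonist replicate 3. Tpsab1 and Tpsb2 passed with no filter. Apart from 3 reads of Tpsb2 in control replicate 2, their reads (388 and 136) lay in agonist replicate 2. Those calls thus rest on a single library and show no difference common to the wells of a pool. Kit passed between the pools in DESeq2, without control replicate 2 (0.89, edgeR adjusted p = 0.0320) and without agonist replicate 2 (0.79, edgeR adjusted p = 0.0364), and not without control replicate 3 (adjusted p = 0.513) or agonist replicate 3 (adjusted p = 0.699). In each of these fits 1 pool is a single library, assumed to vary like the other. The fitted pool difference of Mcpt4 turned to 7.12 without agonist replicate 2, which is no result, since its remaining reads then lie in 1 agonist well of pool 3 and the sign is set by the values that chose the members. The sum of all 10 members had a log2 ratio of 0.03, which moved to 3.46 without Kit. The sum of the 9 was 1.08 to 4.32 with 1 library omitted, 1.08 without agonist replicate 2. Both sums include Mcpt4, whose reads chose the set. The median of the other mast cell genes moved to 0.50 without control replicate 2 and to 0.37 without agonist replicate 3, that of the IgE receptor and KIT signalling genes lay between -0.35 and 0.28, and that of the basophil markers between -1.28 and 0.02. The cause of these changes was not tested. The settings for the sum of the 9 members, the list medians and the transcript lengths were chosen after seeing the data. The proteases had 0 to 388 reads per library, and whether their low counts come from depth was not tested.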
